A study of Macaca mulatta with 34 samples.

Results

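The genes described here are NF-kB feedback and subunit genes of the rhesus macaque. They are the inhibitors NFKBIA and NFKBIE, the ubiquitin-editing enzyme TNFAIP3, the NF-kB-induced genes TNFAIP2, BIRC3 and TRAF1, the nuclear co-regulator BCL3, and the subunit genes NFKB1, NFKB2 and RELB. Members were chosen by symbol, by a rule that uses no measured value but was drawn up with earlier results of these data known. Of the 10 genes, 9 had a row in the count tables of all 22 libraries from the deep nuclei of the cerebellum (DCN), which send its output to the rest of the brain, among 34847 gene identifiers, and NFKB2 was not analysed here. The identifiers are ENSMMUG00000020374 for NFKBIA, ENSMMUG00000022689 for NFKBIE, ENSMMUG00000008869 for TNFAIP3, ENSMMUG00000021634 for TNFAIP2, ENSMMUG00000058594 for BIRC3, ENSMMUG00000041498 for TRAF1, ENSMMUG00000055187 for BCL3, ENSMMUG00000003736 for NFKB1 and ENSMMUG00000014153 for RELB. Each of the 9 passed the filter on low counts in all 8 comparisons.

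Macaques received injections into the DCN under magnetic resonance guidance, and total RNA of that tissue was sequenced, 1 library per animal by the animals' identifiers. Study 1 addressed the toxicity of AAV.miS1, a recombinant adeno-associated virus (rAAV2/1) with an RNA interference construct, in 6 libraries against 4 from animals given vehicle. Study 2 characterised immune responses to other cargoes in 3 libraries each of StufferOnly (a vector of filler sequence), miSCA7Stuffer (miSCA7 with that filler), intmiS1 (another miS1 construct) and empty capsid, an AAV particle without a vector genome, which was the control. The groups of a study thus shared the injection, and those of Study 2 also the capsid. Dose, age, sex, strain and time after injection were not used here.

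NF-kB is a family of transcription factors formed by pairs of subunits, among them p50, made from NFKB1, and RelB. In resting cells the dimers are held in the cytoplasm by IkB proteins such as those encoded by NFKBIA and NFKBIE. Tumour necrosis factor, interleukin-1 and Toll-like receptor signals activate IkB kinase, the inhibitors are degraded, and the freed dimers switch on inflammatory genes together with their own inhibitors, so the transcripts of these feedback genes are widely used as a readout of the pathway. In brain tissue the pathway is best known in microglia, astrocytes, blood vessels and infiltrating leukocytes.

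Values are CPM, read counts relative to the library's total in genes, scaled by TMM within a study. Study 1 libraries held 2049685 to 4810852 counts in genes, except vehicle replicate 2 with 87741, in which 1 read was worth 10.4 CPM and a count of 0 allows up to 31.2 CPM. Study 2 libraries held 20978241 to 39792653 counts when counted with featureCounts, and 5169866 and 4858179 for intmiS1 replicates 1 and 2, which were counted with STAR. The share of unmapped reads was 9.23% to 11.99% in AAV.miS1 replicates 1 to 4 and 9.56% in vehicle replicate 1, against 19.8% to 21.3% in AAV.miS1 replicates 5 and 6 and 24.3% to 31.4% in vehicle replicates 2 to 4. Markers of DCN projection neurons were detected in every group (6 of 6). Detection does not show that the tissue taken was alike between libraries. Levels are compared between libraries and not between genes, because gene lengths were not used here.

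The NF-kB genes were higher in DCN given AAV.miS1 or StufferOnly than in their controls, and higher in 2 of the 3 miSCA7Stuffer libraries. In the intmiS1 libraries NFKBIA was the 1 member of 9 wholly above the control, a share near the 9.51% of all genes. BIRC3 was spread there from below the control to above it. Calls are from edgeR's quasi-likelihood test with Benjamini-Hochberg adjustment over all genes tested, at an adjusted p under 0.05. With AAV.miS1, 5 of 9 members rose (TNFAIP3, BIRC3, TNFAIP2, BCL3 and RELB), where 7.22% of the 13383 genes tested rose. Vehicle reads were few for BCL3 (4, 0, 10 and 10), RELB (8, 0, 11 and 3) and BIRC3 (3, 1, 12 and 8). These genes passed the Study 1 filter on low counts through the AAV.miS1 libraries, so their calls are partly set by the filter. With StufferOnly, 7 of 9 rose (all but TNFAIP3 and BCL3), where 11.6% of 20882 genes rose. The miSCA7Stuffer libraries gave 0 calls of 9, where 0.00479% of genes (1 gene) rose, with 6 members (4808 of all 20882 genes) at an unadjusted p under 0.05 and 5 called by DESeq2 (7.22% of genes rose by it). The intmiS1 libraries gave 0 calls of 9, where 0% of 21501 genes rose, with 1 member (1831 of all genes) at an unadjusted p under 0.05 and 0 called by DESeq2. The 3 Study 2 vectors were set against the same 3 empty capsid libraries, so these comparisons are not independent.

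**Figure D1:**
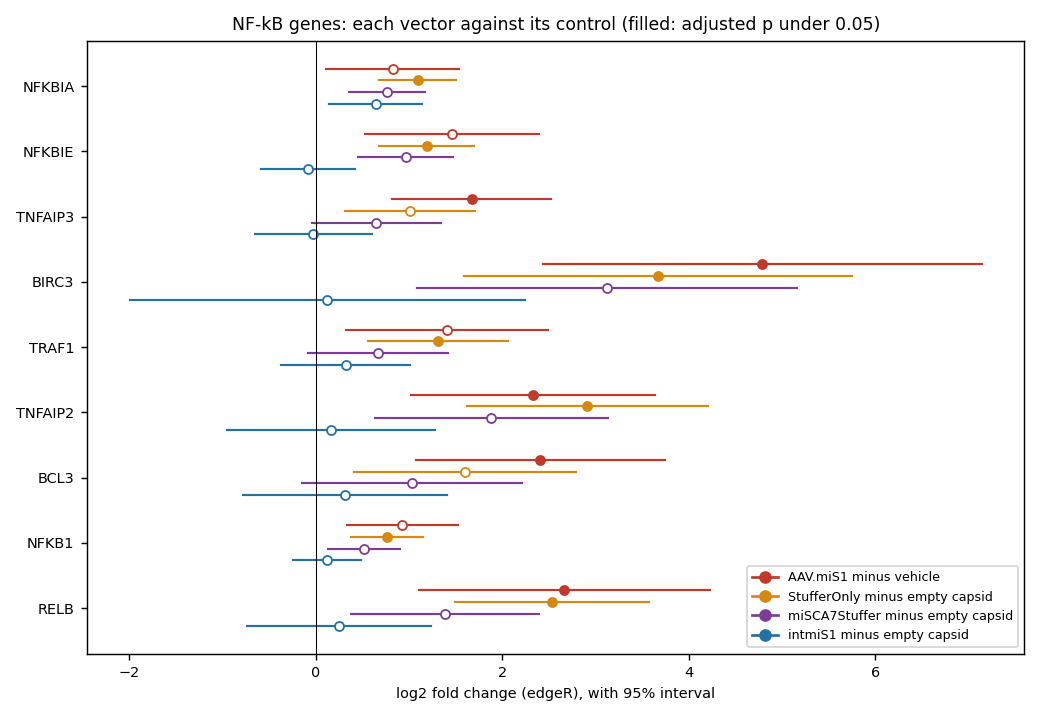
Log2 fold change of each of 9 NF-kB genes (x axis, edgeR) for 4 vectors against their controls, with 95% intervals; filled points passed an adjusted p of 0.05. AAV.miS1 points lie at 0.82 or above and StufferOnly points at 0.76 or above, whereas the intmiS1 points lie between -0.09 and 0.64.

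Every member's fitted change lay above 0 with AAV.miS1, with a median log2 fold change of 1.67 over the members against 0.02 over all genes tested. The StufferOnly fit gave 9 of 9 above 0 with a median of 1.31 (0.02 over all genes), and the miSCA7Stuffer fit 9 of 9 with a median of 0.96 (0.07 over all genes). The intmiS1 fit gave 7 of 9 above 0 with a median of 0.17 (0.01 over all genes). In bulk tissue, fewer or more cells of a type and less or more RNA per cell cannot be told apart.

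Calls were lost when single libraries were left out, in fits with 1 library less, while the folds kept their direction. Over these fits RELB ran from 2.29 to 2.91 and BIRC3 from 4.31 to 5.03 with AAV.miS1, and RELB from 2.33 to 2.65 and BIRC3 from 3.19 to 4.09 with StufferOnly. In Study 1, 0 of 9 passed without any 1 of the 4 vehicle libraries or without AAV.miS1 replicate 4, when only 0 to 3 of all genes rose. The counts were 4, 1 and 2 without AAV.miS1 replicates 1, 2 and 3 (6.59%, 3.58% and 4.18% of all genes rose), and 8 and 7 without replicates 5 and 6 (14.5% and 9.22%). In the StufferOnly comparison 7 passed without StufferOnly replicate 1 (9.38% of all genes rose), and 0 passed without StufferOnly replicate 2 or 3 or any 1 empty capsid library, when 0 to 44 of all genes rose. Without miSCA7Stuffer replicate 1, left out here after its values were seen, 8 of 9 members rose in the other 2 miSCA7Stuffer libraries, where 15.6% of all genes rose. No member's fold change against vehicle or empty capsid changed sign for AAV.miS1, StufferOnly or miSCA7Stuffer when 1 library was left out.

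NFKBIA encodes IkB-alpha, the inhibitor that NF-kB itself induces fastest. It had a lowest value of 57.3, a median of 96.5 and a highest value of 162 CPM in the 6 AAV.miS1 libraries, against 78.3, 41.5, 54.3 and 52.1 CPM in the vehicle libraries. AAV.miS1 replicates 1, 2 and 4 lay above every vehicle library, and the other 3 lay below vehicle replicate 1, so the groups overlapped. The log2 fold change was 0.82 ± 0.32 (SE), and it did not pass (edgeR adjusted p = 0.137). In Study 2 NFKBIA had 74.2, 79.5 and 58.6 CPM in StufferOnly, 43.1, 61.5 and 64.2 CPM in miSCA7Stuffer and 57.2, 62.9 and 35.4 CPM in intmiS1 libraries, against 32.0, 32.6 and 34.8 CPM in empty capsid libraries. All 9 vector libraries lay above all 3 empty capsid libraries, the lowest of them by less than 1 CPM. NFKBIA rose with StufferOnly by 1.09 ± 0.18 (edgeR adjusted p = 0.0181).

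NFKBIA was the 1 member of 9 whose intmiS1 values all lay above the control values, a share near the 9.51% of all genes. The lowest of these values, 35.4 CPM in replicate 3, was close to the highest empty capsid value of 34.8 CPM. The log2 fold change of NFKBIA against empty capsid was 0.64 ± 0.23, with a 95% interval of 0.14 to 1.14, and was not called (edgeR adjusted p = 0.576). The 2 high values came from the libraries counted with STAR. With these 2 alone the change was 0.86 (edgeR adjusted p = 0.0198, with 1.3% of all genes rising), and with intmiS1 replicate 3 alone, counted by the same program as the controls, it was 0.10. Counting program and animal cannot be told apart in these libraries.

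NFKBIE encodes IkB-epsilon, a slower feedback inhibitor. Its lowest, median and highest values were 8.17, 18.1 and 33.4 CPM with AAV.miS1, against 6.49, 0, 6.19 and 7.96 CPM in the vehicle libraries. The groups did not overlap, although the lowest AAV.miS1 library lay close to the highest vehicle library. The log2 fold change of 1.46 ± 0.42 did not pass (edgeR adjusted p = 0.0599). DESeq2 called it (adjusted p = 0.0212). In Study 2 NFKBIE had 13.8, 16.6 and 16.01 CPM in StufferOnly, 9.10, 14.2 and 16.3 CPM in miSCA7Stuffer and 6.48, 5.31 and 7.17 CPM in intmiS1, against 6.83, 6.36 and 7.14 CPM in empty capsid libraries. Both stuffer groups lay wholly above empty capsid, and intmiS1 values were spread around the control values. The gene rose with StufferOnly by 1.19 ± 0.22 (edgeR adjusted p = 0.0198), and its intmiS1 change was -0.09 ± 0.23 with an interval of -0.59 to 0.42.

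TNFAIP3 encodes A20, which removes and edits ubiquitin chains on signalling adaptors and shuts off IkB kinase activation. It had 21.8, 40.6 and 57.2 CPM (lowest, median and highest) with AAV.miS1, against 12.1, 0, 15.2 and 12.6 CPM with vehicle. The 6 AAV.miS1 libraries all lay above the 4 vehicle libraries, although the 0 of vehicle replicate 2 allows up to 31.2 CPM. AAV.miS1 replicates 1, 2 and 4 were above 50 CPM and the others under 30 CPM. TNFAIP3 rose by 1.67 ± 0.39 (edgeR adjusted p = 0.0324). Over the fits that left out 1 library, the change ran between 1.55 and 1.82 and the adjusted p between 0.00773 and 0.138.

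In Study 2 TNFAIP3 had 21.6, 34.0 and 26.1 CPM in StufferOnly, 11.8, 25.1 and 26.7 CPM in miSCA7Stuffer and 12.01, 13.8 and 13.9 CPM in intmiS1, against 12.4, 13.4 and 14.8 CPM in empty capsid libraries. Every StufferOnly library was above every empty capsid library, and miSCA7Stuffer replicate 1 was below them all. The StufferOnly change of 1.01 ± 0.31 missed the threshold (edgeR adjusted p = 0.0576). It passed with DESeq2 (adjusted p = 0.0216) and when the StufferOnly and empty capsid libraries were fitted alone (edgeR adjusted p = 0.00513). The intmiS1 change was -0.03 ± 0.28, with an interval of -0.66 to 0.60.

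BIRC3 encodes cIAP2, a ubiquitin ligase that restrains cell death downstream of tumour necrosis factor receptors and is induced by NF-kB. It showed the widest change of the members. Its lowest, median and highest values were 6.13, 68.0 and 180.0 CPM with AAV.miS1, and its vehicle values were 1.30, 10.4, 3.37 and 2.65 CPM, from 3, 1, 12 and 8 reads. AAV.miS1 replicates 1, 2 and 4 exceeded 100 CPM and replicate 5 had 6.13 CPM. The groups overlapped only through the 1 read of vehicle replicate 2. BIRC3 rose by 4.79 ± 1.07 on the log2 scale (95% interval 2.43 to 7.14, edgeR adjusted p = 0.0307), a size that rests on few vehicle reads.

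The Study 2 values of BIRC3 were 16.4, 80.6 and 57.9 CPM in StufferOnly, 4.15, 45.3 and 56.7 CPM in miSCA7Stuffer and 0.572, 9.64 and 3.40 CPM in intmiS1, against 4.74, 4.29 and 3.12 CPM in empty capsid libraries. StufferOnly replicate 1 was well under the other 2 of its group, and miSCA7Stuffer replicate 1 lay within the control range. Reads were plentiful in the stuffer groups (549 to 1864 in StufferOnly), whereas the intmiS1 values came from 3, 49 and 108 reads. BIRC3 rose with StufferOnly by 3.67 ± 0.91 (edgeR adjusted p = 0.0328). Its intmiS1 change of 0.12 ± 0.96 had an interval of -1.997 to 2.24, too wide to set it apart from a several-fold change in either direction.

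TRAF1 encodes an adaptor of tumour necrosis factor receptors that binds cIAP proteins and is itself an NF-kB target. Its lowest, median and highest values were 4.77, 9.74 and 21.3 CPM with AAV.miS1, against 5.63, 0, 4.50 and 4.31 CPM with vehicle. Replicates 1 and 2 were the high ones, and replicate 5 lay within the vehicle range. The change of 1.40 ± 0.49 did not pass (edgeR adjusted p = 0.104). In Study 2 TRAF1 had 5.97, 12.1 and 8.27 CPM in StufferOnly, 3.88, 6.76 and 6.22 CPM in miSCA7Stuffer and 4.39, 4.13 and 4.69 CPM in intmiS1, against 3.49, 4.25 and 2.89 CPM in empty capsid libraries. TRAF1 rose with StufferOnly by 1.31 ± 0.33 (edgeR adjusted p = 0.0337). It was the 1 member that did not pass in the miSCA7Stuffer libraries without replicate 1 (0.84 ± 0.30, edgeR adjusted p = 0.0605).

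**Figure D2:**
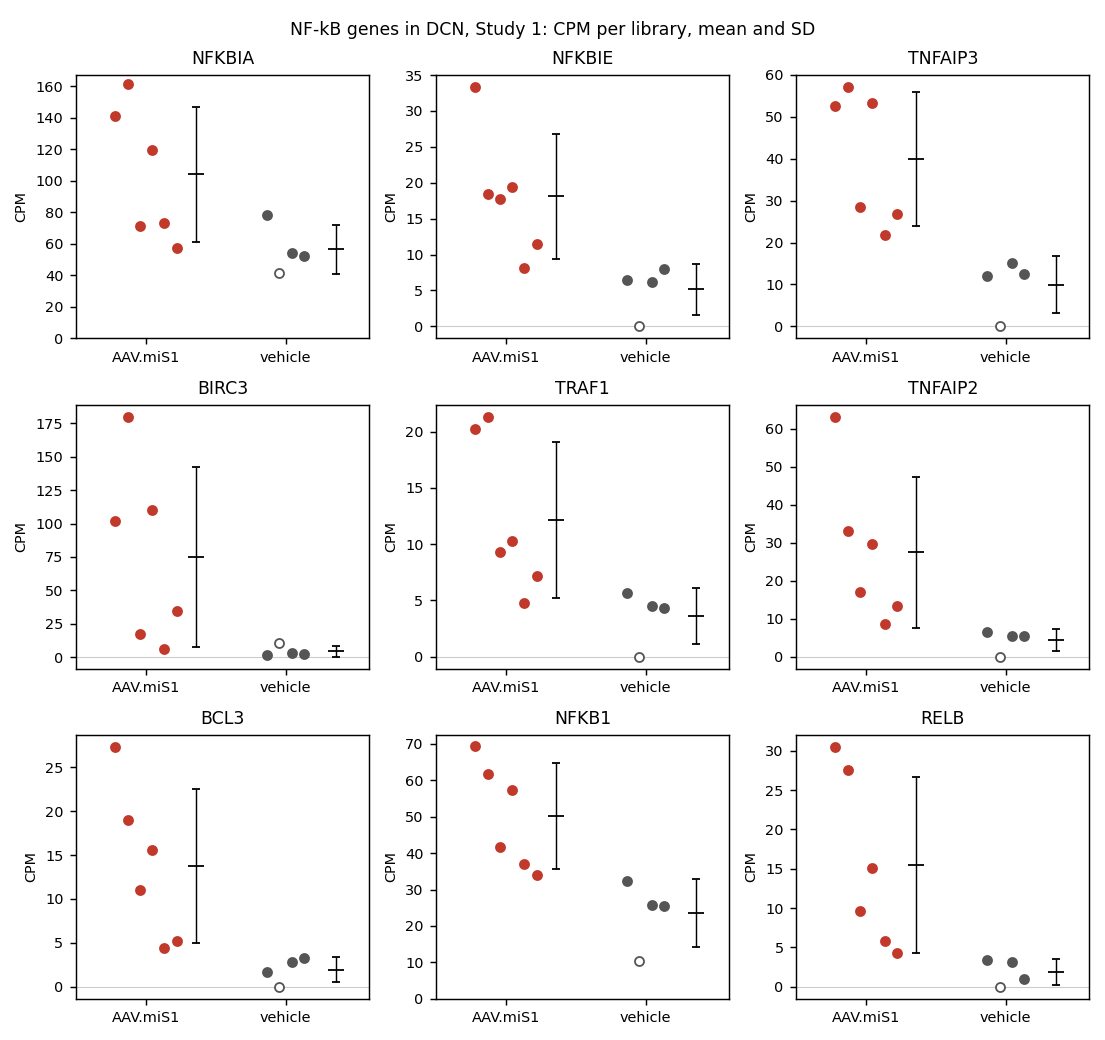
CPM of 9 NF-kB genes in the 6 AAV.miS1 and 4 vehicle libraries of Study 1, each panel with its own linear scale, with mean and SD beside the points and the shallow vehicle replicate 2 hollow. TNFAIP3 lies at 21.8 to 57.2 CPM with AAV.miS1 and at 12.1 to 15.2 CPM in the vehicle libraries other than replicate 2, and NFKBIA overlaps. Replicate 2 had 0 reads of TNFAIP3, which allows up to 31.2 CPM.

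TNFAIP2 encodes a protein of membrane protrusions that tumour necrosis factor induces through NF-kB. It had 8.51, 23.4 and 63.2 CPM (lowest, median and highest) with AAV.miS1, against 6.49, 0, 5.34 and 5.30 CPM with vehicle. The groups did not overlap, and AAV.miS1 replicate 1 was far above the other 5. TNFAIP2 rose by 2.32 ± 0.59 (edgeR adjusted p = 0.0410). In Study 2 it had 26.8, 33.3 and 32.9 CPM in StufferOnly, 3.94, 18.1 and 23.6 CPM in miSCA7Stuffer and 4.77, 4.33 and 4.72 CPM in intmiS1, against 5.32, 4.03 and 2.99 CPM in empty capsid libraries. The StufferOnly values were tight and several times the control, and miSCA7Stuffer replicate 1 lay inside the control range. TNFAIP2 rose with StufferOnly by 2.91 ± 0.57 (edgeR adjusted p = 0.0200).

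BCL3 encodes an atypical IkB protein that acts in the nucleus with p50 and p52 homodimers. Its lowest, median and highest values were 4.42, 13.3 and 27.3 CPM with AAV.miS1, against 1.73, 0, 2.81 and 3.32 CPM with vehicle. Every AAV.miS1 library lay above every vehicle library, and replicates 5 and 6 were the closest to them. BCL3 rose by 2.41 ± 0.61 (edgeR adjusted p = 0.0396). In Study 2 it had 5.497, 8.08 and 6.46 CPM in StufferOnly, 1.34, 5.31 and 6.86 CPM in miSCA7Stuffer and 3.05, 2.75 and 2.45 CPM in intmiS1, against 2.27, 1.66 and 2.66 CPM in empty capsid libraries. StufferOnly lay wholly above the control and miSCA7Stuffer replicate 1 below it. The StufferOnly change of 1.60 ± 0.52 missed the threshold (edgeR adjusted p = 0.0706) and passed with DESeq2 (adjusted p = 0.00418).

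NFKB1 encodes p105, the precursor of p50 and itself an inhibitor. It had 33.9, 49.5 and 69.5 CPM (lowest, median and highest) with AAV.miS1, against 32.5, 10.4, 25.9 and 25.5 CPM with vehicle. The groups did not overlap, but the lowest AAV.miS1 library was only just above vehicle replicate 1. The change of 0.93 ± 0.27 did not pass (edgeR adjusted p = 0.0613), and DESeq2 called it (adjusted p = 0.0252). In Study 2 NFKB1 had 41.2, 44.4 and 46.7 CPM in StufferOnly, 28.6, 45.2 and 37.6 CPM in miSCA7Stuffer and 26.9, 31.3 and 26.7 CPM in intmiS1, against 26.9, 24.9 and 26.2 CPM in empty capsid libraries. The StufferOnly libraries all lay above 40 CPM and the empty capsid libraries under 27 CPM, with miSCA7Stuffer replicate 1 near the control. NFKB1 rose with StufferOnly by 0.76 ± 0.17 (edgeR adjusted p = 0.0245), the smallest of the 7 called StufferOnly changes.

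RELB encodes the subunit that pairs with p52 in the alternative NF-kB pathway. Its lowest, median and highest values were 4.30, 12.3 and 30.5 CPM with AAV.miS1, against 3.46, 0, 3.09 and 0.995 CPM with vehicle. The groups did not overlap, and replicates 1 and 2 were the high ones. RELB rose by 2.67 ± 0.71 (edgeR adjusted p = 0.0467), the call nearest to the threshold, and with the unstranded column of the same files it missed it (2.51, edgeR adjusted p = 0.0540). In Study 2 RELB had 16.1, 24.5 and 17.7 CPM in StufferOnly, 3.21, 9.98 and 13.1 CPM in miSCA7Stuffer and 4.58, 4.92 and 2.77 CPM in intmiS1, against 3.54, 3.31 and 3.19 CPM in empty capsid libraries. Every StufferOnly library lay above every other Study 2 library, and miSCA7Stuffer replicate 3 was the nearest to them. RELB rose with StufferOnly by 2.53 ± 0.46 (edgeR adjusted p = 0.0192).

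**Figure D3:**
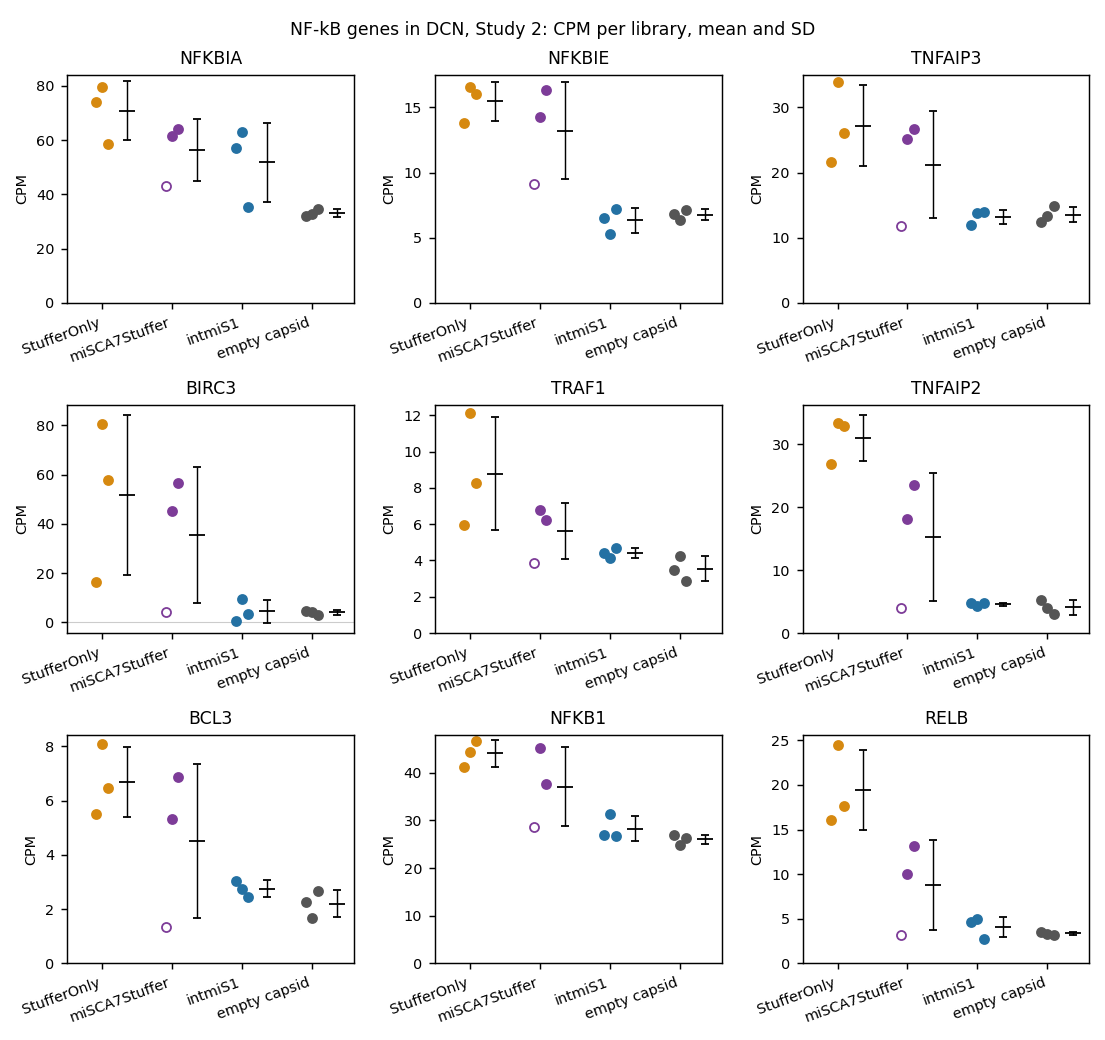
CPM of 9 NF-kB genes in the 12 Study 2 libraries (StufferOnly, miSCA7Stuffer, intmiS1 and empty capsid, 3 each), each panel with its own linear scale, with mean and SD beside the points and miSCA7Stuffer replicate 1 hollow. RELB shows the order of the groups, with means of 19.4 CPM in StufferOnly, 8.77 in miSCA7Stuffer, 4.09 in intmiS1 and 3.35 in empty capsid.

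Counting libraries without any fit gave a similar picture. Every AAV.miS1 value exceeded every vehicle value for 6 of 9 members (7.47% of all genes), and for 7 of 9 when the shallow vehicle replicate 2 was left out (11.1% of all genes). A count of 0 in that library allows up to 31.2 CPM, which is above some AAV.miS1 values of NFKBIE, TNFAIP3, TNFAIP2, BCL3 and RELB. For these 5 genes separation from that library is therefore not shown. The StufferOnly libraries lay above empty capsid for 9 of 9 (26.8% of all genes). For miSCA7Stuffer it was 3 of 9 with all libraries (12.2% of all genes; NFKBIA, NFKBIE and NFKB1) and 9 of 9 without replicate 1 (32.9% of all genes). For intmiS1 it was 1 of 9 (9.51% of all genes), which is a share near that of all genes.

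In the AAV.miS1, StufferOnly and miSCA7Stuffer groups the same libraries were high or low for most members. Each library's log2 ratio to its control mean was taken per member, and the median over the 9 members is given. AAV.miS1 replicates 1, 2, 3 and 4 had medians of 2.28, 2.15, 1.37 and 2.003, and replicates 5 and 6 had 0.57 and 0.77, over a vehicle mean without replicate 2. Replicate 1 or 2 was the highest of the 6 for each member (5 and 4 members), and replicate 5 or 6 the lowest (6 and 3 members). The StufferOnly medians were 1.16, 1.77 and 1.24, and replicate 2 was the highest of its group for 8 of 9 members. The intmiS1 medians were 0.21, 0.27 and 0.083, and members differed there: in replicate 1 NFKBIA was at 0.79 and BIRC3 at -2.82, and no intmiS1 library was the highest or the lowest for more than 4 of 9.

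**Figure D4:**
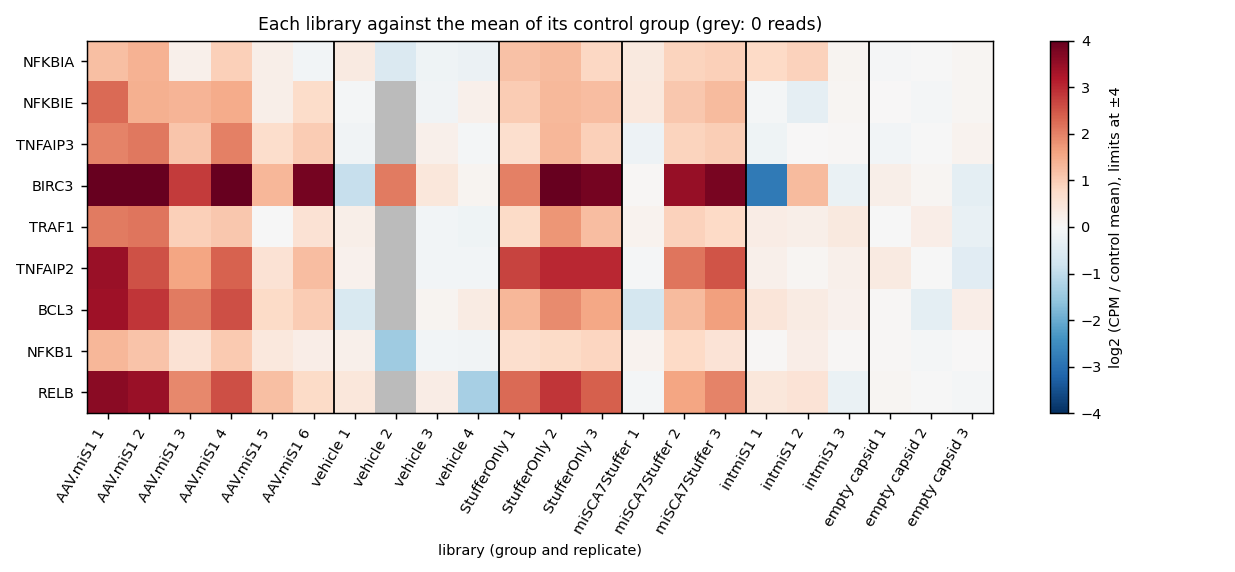
Log2 ratio of each library's CPM to the mean of its control group (colour, limits at ±4; vehicle mean without replicate 2) for 9 NF-kB genes (rows) in 22 libraries (columns); grey marks 0 reads. The miSCA7Stuffer replicate 1 column is near the control colour (median 0.04), while replicates 2 and 3 are not (1.07 and 1.27).

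The miSCA7Stuffer libraries differed among themselves. Replicate 1 was the lowest of the 3 for 9 of 9 members, with a median log2 ratio to empty capsid of 0.04, against 1.07 in replicate 2 and 1.27 in replicate 3. It also had few reads on the vector sequence named in every table, 1.64 on the CPM scale without TMM, where replicates 2 and 3 had 349 and 257. The name of this sequence refers to miS1 and a stuffer. How much of it each construct carries was not given in the sources used here. Its reads therefore do not measure the amount of vector between constructs. The StufferOnly libraries had 350, 625 and 248 on that scale, and the empty capsid libraries 0.151 to 0.281. The intmiS1 libraries had 0.387, 1.44 and 0.372. AAV.miS1 replicates 1 to 6 had 7.48, 67.8, 17.1, 20.4, 2.37 and 4.88, against 0 to 0.881 in vehicle libraries, and replicate 1, with the largest median ratio of the members, was not the highest of them. Whether the reads on this sequence bear on the members' levels was not tested. Replicate 1 was singled out after its values were seen, so the fit without it is a description. With it left out, the changes against empty capsid ran from 0.64 ± 0.12 for NFKB1 to 3.62 ± 0.53 for BIRC3, and RELB was at 1.75 ± 0.21 (edgeR adjusted p = 0.000626). With all 3 libraries the same genes had 0.52 ± 0.17, 3.13 ± 0.89 and 1.39 ± 0.44, at edgeR adjusted p values of 0.147, 0.137 and 0.145.

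Within Study 1 the high and low AAV.miS1 libraries also differed in the share of unmapped reads. Among libraries with over 15% unmapped reads (2 AAV.miS1, 3 vehicle), 0 of 9 members passed, where 0.916% of all genes rose. All 9 changes there were above 0, at 0.33 to 2.6 with a median of 0.68, BCL3 was at 0.68, and the largest was BIRC3 (2.6 ± 0.68, edgeR adjusted p = 0.0969). The set under 15% held 4 AAV.miS1 libraries and 1 vehicle library, with RELB at 9.61 to 30.5 against 3.46 CPM and TNFAIP3 at 28.5 to 57.2 against 12.1 CPM. With the set as a covariate, 0 of 9 passed (1.1% of all genes rose), with changes of 0.48 to 3.76 and a median of 1.33.

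Markers of several cell types differed between the same groups. The summed level of 8 microglia and macrophage markers was 574 to 4193 CPM with AAV.miS1 against 296 to 582 CPM with vehicle. Without the shallow vehicle replicate 2 the vehicle range was 296 to 399 CPM. The sum was 1361 to 1905 CPM in StufferOnly, 276, 1139 and 1131 CPM in miSCA7Stuffer and 294 to 437 CPM in intmiS1. In empty capsid libraries it was 316 to 387 CPM. Of the 8 markers, 4 lay above vehicle without overlap with AAV.miS1 (7.47% of all genes did). Above empty capsid lay 6 in StufferOnly (26.8% of all genes), 0 in miSCA7Stuffer (12.2%) and 1 in intmiS1 (9.51%). In miSCA7Stuffer 1 lay below it (12.7% of all genes). TMEM119 was at 0 in intmiS1, and all 8 were detected in the other groups. AAV.miS1 replicate 1 was highest and replicate 5 lowest in this sum, and miSCA7Stuffer replicate 1 was lowest in its group.

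The sum of 6 B and plasma cell markers was 11.6 to 1570 CPM with AAV.miS1 against 2.32 to 41.5 CPM with vehicle. Without the shallow vehicle replicate 2 the vehicle range was 2.32 to 5.62 CPM. The sum was 84.2 to 590 CPM in StufferOnly, 2.87, 191 and 252 CPM in miSCA7Stuffer and 4.004, 34.6 and 4.22 CPM in intmiS1. In empty capsid libraries it was 2.82 to 3.39 CPM, with CD79B at 0 in intmiS1 and empty capsid. Of the 6 markers, 3 lay above vehicle without overlap with AAV.miS1 (7.47% of all genes did). Above empty capsid lay 6 in StufferOnly (26.8% of all genes), 1 in miSCA7Stuffer (12.2%) and 0 in intmiS1 (9.51%). Over all libraries JCHAIN had 48271 reads and MZB1, the next of the 6, 2083, so JCHAIN made up most reads of the sum. Within intmiS1 the sum was highest in replicate 2, the library with the highest BIRC3 of its group. The T cell sum (6 of 6 detected in each group) was 39.2 to 140 CPM with AAV.miS1 against 31.2 to 44.8 CPM with vehicle. It was 58.0 to 90.1 CPM in StufferOnly, 50.8, 49.4 and 53.5 CPM in miSCA7Stuffer and 43.2 to 65.6 CPM in intmiS1, against 46.0 to 61.2 CPM in empty capsid. The T cell sums of miSCA7Stuffer replicates 2 and 3 lay within the control range. Over all libraries TRAC had 11896 reads and CD8A, the next of the 6, 3638, so TRAC made up most reads of the sum. Taken singly, 3 of the 6 T cell markers lay above empty capsid without overlap in miSCA7Stuffer (12.2% of all genes did). The count was 5 in StufferOnly (26.8% of all genes) and 0 in intmiS1 (9.51%). In StufferOnly 1 marker lay below empty capsid (22.2% of all genes), and with AAV.miS1 1 lay above vehicle (7.47% of all genes).

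The sum of 5 neutrophil markers was low throughout, at 2.04 to 21.1 CPM with AAV.miS1 against 0 to 2.98 CPM with vehicle, with S100A8 and S100A9 at 0 in AAV.miS1. It was 7.38 to 11.1 CPM in StufferOnly, 2.11, 12.99 and 9.73 CPM in miSCA7Stuffer and 2.74 to 4.004 CPM in intmiS1, against 1.59 to 3.61 CPM in empty capsid. The sum of 6 neuron markers was 26.3 to 3764 CPM with AAV.miS1 against 1880 to 3879 CPM with vehicle, lowest in replicate 1. It was 1310 to 2878 CPM in StufferOnly, 3150, 307 and 322 CPM in miSCA7Stuffer and 2373 to 3852 CPM in intmiS1, against 2929 to 4275 CPM in empty capsid. Neuron markers were thus lowest of Study 2 in miSCA7Stuffer replicates 2 and 3. The sum of 6 DCN projection neuron markers was 745 to 2036 CPM with AAV.miS1 against 1353 to 2150 CPM with vehicle. It was 1459 to 1963 CPM in StufferOnly and 1607, 1089 and 1067 CPM in miSCA7Stuffer. The intmiS1 libraries had 1381 to 1889 CPM and empty capsid 1451 to 2172 CPM. SPP1 had the most reads of these 6 markers (294575 over all libraries). The sum of 6 astrocyte markers was 2612 to 25748 CPM with AAV.miS1, lowest in replicate 1, against 12637 to 13975 CPM with vehicle. It was 9440, 3118 and 6202 CPM in miSCA7Stuffer and 6135 to 13417 CPM in StufferOnly. The intmiS1 libraries had 7778 to 10270 CPM and empty capsid 10536 to 11112 CPM. In StufferOnly 4 of the 6 lay lower without overlap (22.2% of all genes did). In miSCA7Stuffer and intmiS1 2 each did (12.7% and 10.7% of all genes), and with AAV.miS1 1 (2.88%). The sum of 6 endothelial markers was 260.1 to 623 CPM with AAV.miS1 against 259.6 to 349.8 CPM with vehicle. It was 343 to 460.3 CPM in StufferOnly, 202 to 319 CPM in miSCA7Stuffer and 199.6 to 308 CPM in intmiS1, against 155 to 244 CPM in empty capsid. The sum of 4 oligodendrocyte markers was 14293 to 16656 CPM in StufferOnly, 19848 to 29749 CPM in miSCA7Stuffer and 31298 to 39545 CPM in intmiS1, against 23872 to 35996 CPM in empty capsid, and 11035 to 25421 CPM with AAV.miS1 against 23409 to 34021 CPM with vehicle. Granule cell sums were 18.1 to 672 CPM with AAV.miS1 (median 35.2) and 29.5 to 908 with vehicle (median 780). They were 785, 180 and 50.5 in miSCA7Stuffer and 11.0 to 294 in StufferOnly. The intmiS1 group had 23.3 to 63.0 and empty capsid 10.9 to 25.8. Purkinje cell sums were 5.12 to 133 CPM with AAV.miS1 and 104 to 260 with vehicle. They were 285, 40.8 and 63.6 in miSCA7Stuffer and 37.7 to 60.8 in StufferOnly. The intmiS1 group had 94.2 to 146 and empty capsid 126 to 145. The part of these cell types in the members' changes was not tested.

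Differences between the vectors were tested directly where the design allowed. Against StufferOnly, intmiS1 was lower for 6 of 9 members, where 8.46% of 21501 genes fell. NFKBIE fell by 1.28, TNFAIP3 by 1.04, TNFAIP2 by 2.75, RELB by 2.29, NFKB1 by 0.64 and BIRC3 by 3.55 on the log2 scale, at edgeR adjusted p values of 0.0129, 0.0418, 0.0143, 0.0155, 0.0329 and 0.0462. NFKBIA (-0.45, edgeR adjusted p = 0.208), BCL3 (-1.29, 0.111) and TRAF1 (-0.99, 0.0648) did not pass. All intmiS1 libraries lay below all StufferOnly libraries for 8 of 9 members (22.6% of all genes), the exception being NFKBIA. Counts fell to 0 without intmiS1 replicate 1 or 2 (0.377% and 0.715% of all genes fell), to 2 without StufferOnly replicate 2 (1.4%), and to 3 without StufferOnly replicate 3 (2.72%). The count was also 3 without intmiS1 replicate 3, although 13% of all genes fell there. With intmiS1 replicate 3 alone, the fit counted by 1 program, 0 passed, 0% of all genes fell, and the 9 changes were -0.72 to -3.91.

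By their names, the miSCA7Stuffer vector carries miSCA7 with a stuffer and StufferOnly a stuffer alone. Other differences between the constructs were not assessed here. All 9 members had a negative change in miSCA7Stuffer against StufferOnly, from -0.22 for NFKBIE to -1.15 for RELB, and 0 passed (0% of genes called; 1 member and 2117 of all genes at an unadjusted p under 0.05; 0 members by DESeq2). RELB had the smallest p (-1.15 ± 0.44, interval -2.14 to -0.16, edgeR adjusted p = 0.433). TNFAIP2 and RELB were lower in all 3 miSCA7Stuffer libraries than in all 3 StufferOnly libraries (2 of 9, 8.42% of all genes). Without miSCA7Stuffer replicate 1, 3 of the 9 changes were above 0 and RELB was at -0.66.

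The AAV.miS1 effect did not differ detectably from the StufferOnly effect, with 0 of 9 called (0% of 16537 genes), 0 called by DESeq2 and 0 at an unadjusted p under 0.05. The difference was 1.15 for BIRC3 with an interval of -1.86 to 4.17, 0.68 for TNFAIP3 (-0.32 to 1.68) and -0.57 for TNFAIP2 (-2.19 to 1.06), so these intervals hold differences of several-fold. The fitted AAV.miS1 effect minus the intmiS1 effect was above 0 for 9 of 9 members, with 0 called by edgeR (0% of genes), 7 at an unadjusted p under 0.05 (2865 of all 16537 genes) and 1 called by DESeq2 (2.01% of genes). The difference was 4.59 for BIRC3 (1.43 to 7.75, edgeR adjusted p = 0.172; DESeq2 adjusted p = 0.0404), 2.35 for RELB (0.55 to 4.15), 1.62 for TNFAIP3 (0.60 to 2.64) and 0.10 for NFKBIA (-0.77 to 0.97). Study, control and counting program differ together in these differences and cannot be told apart.

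Other genes of the pathway were taken from 7 lists by role, of which 72 of 74 genes had a row. With AAV.miS1, 62 of the 72 passed the filter on low counts, of which 18 rose and 0 fell, where 7.22% of all genes rose. With StufferOnly, 32 of 71 rose and 0 fell, where 11.6% of all genes rose. The miSCA7Stuffer libraries gave 0 of 71. Without replicate 1, 38 passed, of which 35 rose, where 15.6% of all genes rose and 16.8% fell. The intmiS1 libraries gave 0 of 71 against empty capsid, and 22 of 71 against StufferOnly, all lower, where 8.46% of all genes fell. The median log2 fold change over all 7 lists was 0.86 with AAV.miS1, 0.72 with StufferOnly, 0.55 with miSCA7Stuffer and 0.13 with intmiS1. The AAV.miS1 count was 0 without any 1 vehicle library or AAV.miS1 replicate 4, 7 without AAV.miS1 replicate 2, 11 without replicate 3 and 30 without replicate 5. The StufferOnly count was 0 without StufferOnly replicate 2 or 3 or any 1 empty capsid library.

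**Figure D5:**
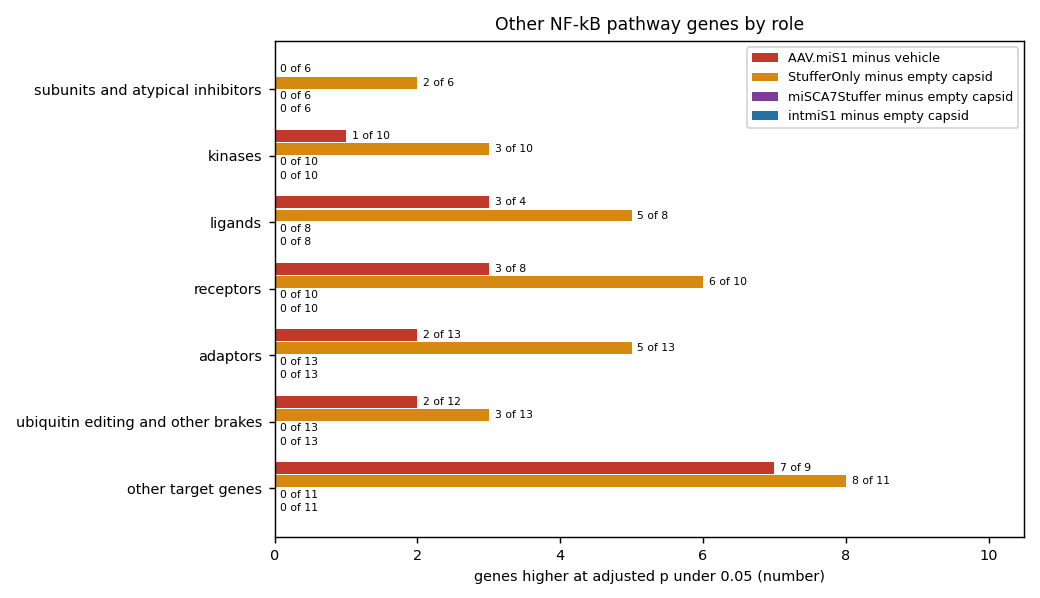
Number of other NF-kB pathway genes at an adjusted p under 0.05 and higher (x axis) in each of 7 lists by role, for 4 vectors against their controls, with the number tested written beside each bar. Target genes have the longest bars (7 of 9 with AAV.miS1, 8 of 11 with StufferOnly), and no bar is drawn for miSCA7Stuffer or intmiS1, where 0 passed.

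Of 9 ligands, 4 passed the filter on low counts with AAV.miS1 (3 rose) and 8 with StufferOnly (5 rose). Over all genes 7.22% and 11.6% rose. A gene near 0 in the controls passes the filter only through the libraries where it is high, as TNFSF14 did in Study 1. The ligand counts are thus partly set by the filter. IL1B, which encodes interleukin-1 beta, averaged 20.6 ± 9.57 CPM with AAV.miS1 and 4.09 ± 3.01 CPM with vehicle (SD, n = 6 and 4; log2 fold change 1.98, edgeR adjusted p = 0.0312). TNFSF13B, the B cell survival factor BAFF, averaged 8.79 ± 0.559 CPM with StufferOnly and 1.54 ± 0.310 CPM with empty capsid (SD, n = 3 each; 2.51, edgeR adjusted p = 0.0278). TNFSF14 had 2 to 38 reads in the AAV.miS1 libraries and 0 in all 4 vehicle libraries.

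Among receptors, 3 of 8 rose with AAV.miS1 and 6 of 10 with StufferOnly (7.22% and 11.6% of all genes). TNFRSF1B, the tumour necrosis factor receptor found mainly on immune and endothelial cells, averaged 99.2 ± 54.7 CPM with AAV.miS1 and 17.2 ± 5.28 CPM with vehicle (2.40, edgeR adjusted p = 0.0275). Its StufferOnly and empty capsid means were 92.1 ± 6.82 and 19.3 ± 0.932 CPM (2.25, edgeR adjusted p = 0.0190). TLR2, a sensor of microbial and viral products, rose by 3.20 with AAV.miS1 (edgeR adjusted p = 0.0275). LTBR, the lymphotoxin receptor that feeds the alternative pathway, rose by 1.36 with StufferOnly (edgeR adjusted p = 0.0219).

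Adaptors and kinases carry the receptor signal to IkB kinase. Of 13 adaptors, 2 rose with AAV.miS1 and 5 with StufferOnly. Of 10 kinases, 1 rose with AAV.miS1 and 3 with StufferOnly, and the medians of the list were 0.24 and 0.10. Over all genes 7.22% rose with AAV.miS1 and 11.6% with StufferOnly, so the AAV.miS1 count of kinases is near the share of all genes. The kinase that rose in both was the IkB kinase relative IKBKE, with 13 to 112 reads in AAV.miS1 libraries against 0, 0, 3 and 1 reads in vehicle libraries. In Study 1 it passed the filter on low counts only through the AAV.miS1 libraries, so that call is partly set by the filter. IKBKE averaged 11.5 ± 2.40 CPM with StufferOnly against 1.59 ± 0.597 CPM with empty capsid (2.85, edgeR adjusted p = 0.0201).

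Of the 6 other subunit and inhibitor genes, 0 rose with AAV.miS1 and 2 with StufferOnly (7.22% and 11.6% of all genes). REL, the c-Rel subunit of lymphoid and myeloid cells, averaged 30.6 ± 3.84 CPM with StufferOnly and 10.47 ± 0.633 CPM with empty capsid (1.55, edgeR adjusted p = 0.0200), and NFKBID, an atypical nuclear IkB, rose by 2.51 (edgeR adjusted p = 0.0162). Of the ubiquitin-editing and other brakes, 2 of 12 rose with AAV.miS1 and 3 of 13 with StufferOnly (7.22% and 11.6% of all genes). TNIP2, a partner of A20, rose by 1.75 with AAV.miS1 (edgeR adjusted p = 0.0329) and by 1.41 with StufferOnly (edgeR adjusted p = 0.0194).

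Of the other NF-kB target genes, 7 of 9 rose with AAV.miS1 and 8 of 11 with StufferOnly (7.22% and 11.6% of all genes). BCL2A1, at a mean of 0.104 CPM with empty capsid, passed the filter on low counts there only through the stuffer vector libraries. The target gene counts are thus also partly set by the filter. CD83, a surface protein of activated antigen-presenting cells, averaged 202 ± 144 CPM with AAV.miS1 and 36.2 ± 11.0 CPM with vehicle (2.62, edgeR adjusted p = 0.0313), and 155 ± 18.3 CPM with StufferOnly and 28.5 ± 4.04 CPM with empty capsid (2.44, edgeR adjusted p = 0.0250). GADD45B, a stress-response gene, rose by 1.63 with AAV.miS1 (edgeR adjusted p = 0.0293) and by 1.499 with StufferOnly (edgeR adjusted p = 0.0154). IRF1, an interferon-response transcription factor, rose by 2.66 with StufferOnly (edgeR adjusted p = 0.0212) and was lower in intmiS1 than in StufferOnly by a log2 change of -2.25 (edgeR adjusted p = 0.0259).

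The genes whose pattern over libraries was most like NFKBIA, by the mean of the Spearman correlations over the 10 Study 1 libraries and over 9 Study 2 libraries, were ZBTB48 (0.94), POLG (0.93) and PHF8 (0.93), out of 13377 genes. The other 8 members had mean correlations with NFKBIA of 0.64 for BIRC3 to 0.83 for RELB and TRAF1. These are descriptions over libraries that share depth, tissue composition and group differences.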

How the data were processed

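Total RNA of 22 DCN libraries was prepared with TRIzol, RNeasy, ribosomal RNA depletion and directional NEBNext kits, per the labels' protocols. The authors deposited read counts per gene, made with STAR 2.6.0c alone or with featureCounts, per the submitters' processing notes and the file headers; featureCounts counted a read in each gene it overlapped. A genome build was not given in the sources used here. Study 1 values are from the reverse-strand column, and those of the 2 STAR intmiS1 libraries from the unstranded column, where reads of a gene and an antisense partner cannot be told apart. Rows naming no gene (63.6% to 72.0% of Study 1 reads) and vector rows were left out of library sizes and tests. Small RNA files were not used here.

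Symbols came from the supplied name table, in which 24009 of 34847 identifiers had one; NFKBIZ and TNFAIP8 were not analysed here. The members and gene lists were chosen with earlier results of these data known. Named genes were every member, and at most 3 called genes with the smallest p per list and comparison.

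edgeR 4.0.16 in R 4.3.3 fitted quasi-likelihood models to the counts (TMM; filterByExpr, minimum count 10 and total 15; prior count 0.125), with Benjamini-Hochberg adjustment over all genes tested and a threshold of 0.05. SE values were approximated from the F statistic, and intervals are 95%. Study 1 was fitted on 10 libraries, the stuffer vectors on 9 featureCounts libraries, intmiS1 on 12, and differences between studies on 22. DESeq2 1.42.0, another scaling, no filter, other count columns, single libraries left out, sets by unmapped reads and a replicate block were alternatives. The block used the replicate numbers in the Study 2 titles: same-numbered miSCA7Stuffer and StufferOnly libraries deviated together (correlations 0.44, 0.18 and 0.25), and with the block 0 members passed between them, as without it. The fits were also run on simulated counts with the same dispersion for every gene and no deviating library. That run checks the code and not the fits under the spread of these data. P values measure spread between these libraries, and zero-count limits (3 counts) cover counting error only. Tables and figures used Python 3.11.15, pandas 2.3.3 and matplotlib 3.10.9.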

Additional observations from a re-analysis of the deposited data

How the results depend on the processing

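Of 1044 member values under alternatives, 24 changed sign, all in comparisons where 0 members passed. Leaving out 1 library gave 0 to 8 members called for AAV.miS1 against vehicle, 0 to 7 for StufferOnly, 0 to 8 for miSCA7Stuffer and 0 to 1 for intmiS1 against empty capsid, and 0 to 7 for intmiS1 against StufferOnly. It gave 0 to 0 for miSCA7Stuffer against StufferOnly and for both differences of effects. For AAV.miS1, 0 passed with the set of unmapped reads as a covariate and 0 within the libraries over 15%. DESeq2 called 5 in miSCA7Stuffer against empty capsid and 1 in the AAV.miS1 effect minus the intmiS1 effect. Using intmiS1 replicate 3 alone, chosen after seeing the data, left 0 of 6 calls against StufferOnly. The causes were not tested.

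Sign changes in miSCA7Stuffer against StufferOnly came without miSCA7Stuffer replicate 1. Leaving out 1 library, NFKBIE ran from -0.40 to 0.064, TNFAIP3 from -0.56 to 0.015 and BIRC3 from -1.06 to 0.076. In intmiS1 against empty capsid it moved NFKBIE between -0.20 and 0.017, TNFAIP3 between -0.091 and 0.036, BIRC3 between -0.80 and 0.60 and TNFAIP2 between -0.022 and 0.39. The reverse column gave 0.013 for TNFAIP3, and intmiS1 replicate 3 alone gave 0.084 for NFKBIE, 0.044 for TNFAIP3, -0.25 for BIRC3 and -0.27 for RELB. In the AAV.miS1 effect minus the StufferOnly effect, TRAF1 ran from -0.15 to 0.40 and RELB from -0.19 to 0.43. In the AAV.miS1 effect minus the intmiS1 effect, NFKBIA ran from -0.12 to 0.30.

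Blocking on replicate number gave 8 members called for StufferOnly (11.3% of all genes rose), 0 for miSCA7Stuffer and 0 for intmiS1 against empty capsid, 0 for miSCA7Stuffer against StufferOnly and 6 for intmiS1 against StufferOnly (9.83% of all genes fell). The added StufferOnly call was TNFAIP3 (0.98, edgeR adjusted p = 0.0370), and BIRC3 in intmiS1 against empty capsid changed sign under the block (-0.59). Over all Study 2 group pairs, 5 of 18 same-numbered pairs correlated above 0.1 (range -0.098 to 0.436). Outside the 2 stuffer groups these were intmiS1 with miSCA7Stuffer at replicates 1 and 2 (0.14 and 0.16). Whether same-numbered libraries share more than a number was not tested. In vehicle replicate 2, 6 of 9 members had 0 reads, which at its depth allows up to 31.2 CPM.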
